A study of Sus scrofa with 6 samples.

Results

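The genes described here encode ubiquitin conjugating enzymes and deubiquitinases, measured in the loin muscle (longissimus dorsi) of 2 pig breeds, Wei and Yorkshire. Members were the rows of the deposited gene table whose symbol starts with UBE2, with USP and a digit, or with OTUD. The pattern matched 78 rows. USP18, UBE2C and 10 rows on chromosome X or Y were left out, which left 66 of the 25322 rows in the table: 25 UBE2, 37 USP and 4 OTUD rows. The rule used names and positions only, but it was chosen with earlier results of these data known. The 66 rows carry 65 symbols, since UBE2D2 is listed on chromosome 2 and again on chromosome 8. USP6NL entered by its name, but it encodes a regulator of Rab GTPases and not a deubiquitinase.

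RNA was sequenced from 3 Wei and 3 Yorkshire libraries. Wei pigs ate commercial feed with free access to food and water and were slaughtered at 90 kg. The groups follow the breed label; the library titles start with YH for Wei and LWH for Yorkshire, codes that the labels do not explain, and an exchange of the labels would turn every direction given here. Similar rearing is stated for the Yorkshire pigs, without a slaughter weight. The labels name no treatment, sex or age for either breed and do not tie libraries to separate animals. A p-value here therefore reflects library-to-library spread, part of which may be technical. Wei replicate 2 held 6901 Y-chromosome counts, against 9 and 14 in Wei replicates 1 and 3. It is therefore not a technical repeat of those libraries.

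Ubiquitin is passed from an activating enzyme (E1) to a conjugating enzyme (E2) and from there, with the help of a ligase, to a substrate protein. The E2 often sets which lysine of ubiquitin links the chain, and Lys48 chains send proteins to the proteasome while Lys63 chains serve mainly in signalling and trafficking. Deubiquitinases cut ubiquitin off again, and the USP and OTU families are large groups of them. In skeletal muscle this system removes contractile proteins during wasting and replaces damaged ones during normal turnover.

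Total counts ranged from 15285197 to 22570075 in Wei and from 17876646 to 27096747 in Yorkshire libraries. Skeletal muscle markers (10 of 12 matched by symbol) summed to between 99130 and 182400 CPM (counts scaled to library size) in Wei and between 150100 and 171300 CPM in Yorkshire. Other cell types differed between libraries. Fibroblast markers (8 of 9 matched, 1 called by edgeR) summed to 558 to 1565 CPM in Wei and 2038 to 3370 CPM in Yorkshire. Lymphocyte and macrophage markers (14 of 14 and 11 of 11 matched, of which 5 and 10 passed the count filter) summed to 47.1 and 181 CPM in Yorkshire replicate 3, against at most 14.1 and 52.6 CPM in the other 5 libraries. No matched marker was at 0 in every library. Y-chromosome genes summed to 6901 counts in Wei replicate 2, whereas the other libraries held 8 to 14 such counts. Sex thus appears to be unbalanced between the breeds, with Y-chromosome expression at that level in a Wei library alone. The part of these differences in the results below was not tested.

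Transcripts of most conjugating enzymes and deubiquitinases differed by less than 2-fold between the breeds. USP7, a nuclear deubiquitinase that stabilises MDM2 and p53, was 1.54-fold higher in Wei, and OTUD7A, a Lys11-specific deubiquitinase present here at very low counts, was 3.02-fold lower. OTUD7A reached the count filter through its Yorkshire libraries, where it is higher, and missed the threshold without that filter (edgeR adjusted p = 0.0607). These were the 2 of 61 tested members (3.28%) that passed the threshold, a p-value from the edgeR quasi-likelihood test under 0.05 after Benjamini-Hochberg adjustment. Over all 13209 tested genes 5.08% passed, 2.73% higher and 2.35% lower in Wei. Neither USP7 nor OTUD7A passed once any single library was left out.

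At an unadjusted p under 0.05 there were 10 members (16.4%), 4 higher and 6 lower in Wei, where all tested genes gave 23.3% (11.4% higher, 11.8% lower). Of the 6 lower ones, OTUD7A, UBE2T and USP31 reached the count filter only through the Yorkshire libraries. The libraries of each breed lay wholly apart for 18 of 61 tested members (29.5%), against 29.6% of all tested genes. Out of the 61 tested members, 10 had all Wei values higher and 8 had all lower, as did 14.3% and 15.3% of all tested genes. The median absolute log2 fold change was 0.168 over the tested members and 0.278 over all tested genes. For 54 of the 61 (88.5%) the 95% interval of the fold change lay inside 2-fold in either direction, as it did for 63.6% of all tested genes. The members were also measured more tightly, with a median standard error of the log2 fold change of 0.157, against 0.216 over all tested genes. The part of that in these comparisons was not tested. The 7 whose interval reached past 2-fold were OTUD7A, UBE2T, UBE2L6, USP2, USP31, USP54 and USP6NL. In bulk muscle, fewer cells of a type and less RNA per cell cannot be told apart.

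**Figure D1:**
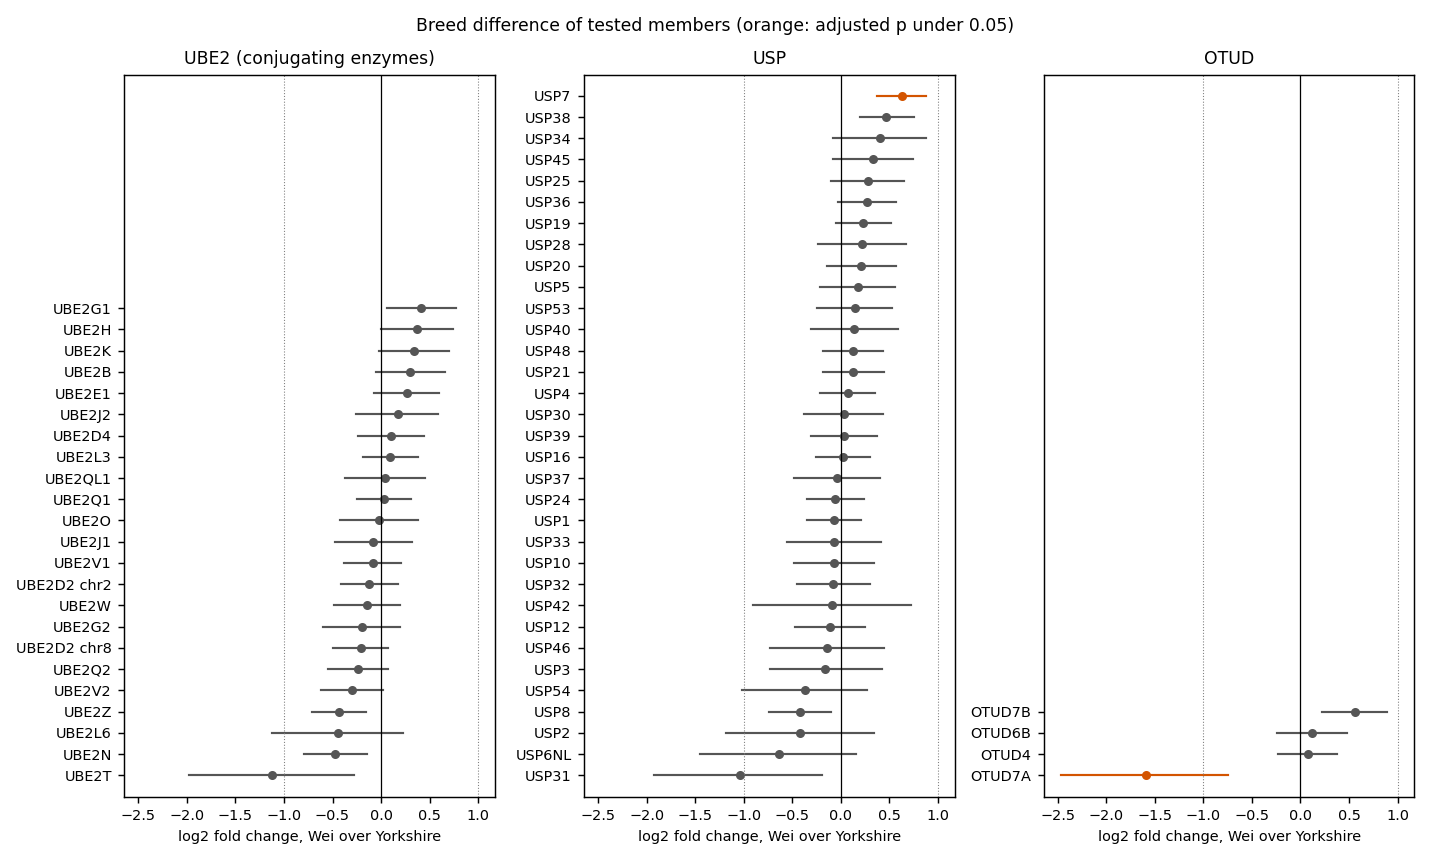
Log2 fold change (x axis, Wei over Yorkshire) of the tested members, all but 1 of the 61, each with its 95% interval, in panels for UBE2, USP and OTUD genes. Orange marks USP7 and OTUD7A, the 2 with an adjusted p under 0.05, and dotted lines mark 2-fold; most intervals lie between the dotted lines.

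No UBE2 gene passed the threshold in edgeR (0 of 24 tested), where 5.08% of all tested genes did. The share with an unadjusted p below 0.05 was 16.7% (4 genes), against 23.3% for all tested genes. Of these 4, 1 was higher and 3 were lower in Wei, where the background shares were 11.4% higher and 11.8% lower. The UBE2 genes had a median log2 fold change of -0.049. DESeq2 and limma voom, which called 9.77% and 4.88% of all genes, called 0 UBE2 genes as well. The median of all tested genes was -0.023. The summed CPM of the 25 rows was 1559, 1695 and 1667 in Wei replicates 1 to 3, against 1572, 1693 and 1495 in Yorkshire replicates 1 to 3. The totals overlapped between breeds.

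Among the E2s of Lys63 chains, 0 of 3 passed in edgeR, 1 was at an unadjusted p under 0.05 and 2 did not overlap between breeds, where all tested genes gave 5.08%, 23.3% and 29.6%. All 3 had negative log2 fold changes, as did 6897 of the 13209 tested genes. UBE2N, the catalytic E2 of these chains, had 36.8, 36.3 and 28.3 CPM in Wei replicates 1 to 3, against 43.3, 49.7 and 47.0 CPM in Yorkshire replicates 1 to 3. All Wei values lay below all Yorkshire values, and the log2 fold change was -0.47 with an SE of 0.14 (edgeR adjusted p = 0.0972). Errors of log2 fold changes are SEs from here on. UBE2V2, a partner of UBE2N that lacks a catalytic cysteine, had 49.2, 52.5 and 41.8 CPM in Wei, against 54.1, 65.7 and 56.8 CPM in Yorkshire. Its values did not overlap either, and its log2 fold change was -0.30 ± 0.14 (edgeR adjusted p = 0.238). UBE2V1, the other such partner, overlapped between breeds, at 108 ± 10.7 CPM in Wei and 114 ± 8.26 CPM in Yorkshire (SD, n = 3 each). A table of gene names pairs the ID of the UBE2N row with the symbol UBE2NL, a near-identical copy, so the reads behind that value are uncertain.

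Among the E2s of protein degradation and quality control at the endoplasmic reticulum, 0 of 7 passed in edgeR, against 5.08% of all tested genes. An unadjusted p under 0.05 was found for 1 (14.3%, against 23.3%), and 2 did not overlap between breeds (28.6%, against 29.6%). Of the 7, 5 had positive log2 fold changes, as did 6312 of the 13209 tested genes. The median over the 7 was 0.302, against -0.023 over all tested genes. UBE2G1, which builds Lys48 chains and was first described from human skeletal muscle, had 299.7, 377 and 409 CPM in Wei replicates 1 to 3, against 286, 287 and 242 CPM in Yorkshire replicates 1 to 3. The lowest Wei library lay just above the highest Yorkshire library, and the log2 fold change was 0.41 ± 0.15 (edgeR adjusted p = 0.158). UBE2H, an E2 of the CTLH ligase complex, also kept all Wei values (9.82, 12.2 and 10.1 CPM) above all Yorkshire values (8.48, 7.47 and 8.93 CPM), with a log2 fold change of 0.37 ± 0.16 (edgeR adjusted p = 0.216).

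UBE2B is the E2 of the N-end rule pathway, and its rat transcript rises in wasting muscle. The row of that name had 53.4, 56.0 and 52.2 CPM in Wei, against 38.0, 53.6 and 39.5 CPM in Yorkshire. Wei replicates 1 and 3 lay below Yorkshire replicate 2, so the groups overlapped, and the log2 fold change was 0.30 ± 0.15 (edgeR adjusted p = 0.281), and 0.474 without Yorkshire replicate 2. The locus of this row spans only 818 bases of chromosome 13, and whether it is the gene itself or a copy was not tested. UBE2B also has a near-identical relative on the X chromosome, so its reads could be split. UBE2K, which builds Lys48 chains by itself, had 56.0, 72.0 and 77.5 CPM in Wei, against 48.6, 61.3 and 52.9 CPM in Yorkshire. Wei replicate 1 lay under Yorkshire replicate 2, and the log2 fold change was 0.34 ± 0.16 (edgeR adjusted p = 0.242). UBE2G2 and UBE2J2, a pair of E2s that serve ligases of the endoplasmic reticulum, had log2 fold changes of -0.20 ± 0.17 and 0.17 ± 0.19. UBE2J1, which acts at the endoplasmic reticulum membrane, differed little, at 12.9 ± 1.45 CPM in Wei and 13.6 ± 2.38 CPM in Yorkshire (SD, n = 3 each).

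UBE2Z, which receives ubiquitin from the activating enzyme UBA6, had the smallest p of the UBE2 family. It stood at 22.5, 20.2 and 19.9 CPM in Wei replicates 1 to 3, against 28.1, 28.1 and 28.3 CPM in Yorkshire replicates 1 to 3. The Yorkshire values were almost equal and all Wei values lay below them, with a log2 fold change of -0.43 ± 0.12 (edgeR adjusted p = 0.079). UBE2T, the E2 of the Fanconi anaemia repair pathway, rested on 29 counts in all Wei and 86 in all Yorkshire libraries. Its log2 fold change was -1.12 ± 0.37 (edgeR adjusted p = 0.115).

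The E2s that start chains had 0 of 5 rows passing in edgeR, and 0 at an unadjusted p under 0.05. The UBE2D2 row on chromosome 8 had 150.5, 135 and 138 CPM in Wei, against 157, 177 and 155 CPM in Yorkshire, without overlap and with a log2 fold change of -0.21 ± 0.12 (edgeR adjusted p = 0.332). The row on chromosome 2 overlapped between breeds, at 116 ± 6.59 CPM in Wei and 126 ± 12.9 CPM in Yorkshire (SD, n = 3 each). UBE2D genes are near-identical in sequence, so reads could be divided between these rows, and the locus on chromosome 8 overlaps NFKB1. The symbol of the chromosome 8 row is that of the deposited table, and which UBE2D gene this row holds was not tested. UBE2D4 and UBE2E1 had log2 fold changes of 0.10 ± 0.15 and 0.27 ± 0.15, and UBE2W, which attaches ubiquitin to the amino terminus of substrates, one of -0.14 ± 0.15. UBE2L6, the E2 of the interferon-induced modifier ISG15, had 3.55, 2.93 and 4.55 CPM in Wei, against 4.34, 3.60 and 7.03 CPM in Yorkshire. Its highest value fell in Yorkshire replicate 3, the library with the highest lymphocyte and macrophage markers. The log2 fold change was -0.44 ± 0.30 with all libraries and -0.103 without Yorkshire replicate 3; the part of those cells was not tested.

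In the USP family 1 of 33 tested genes passed (3.03%, against 5.08% of all tested genes). USP7 (ENSSSCG00000007907, chromosome 3, 34686456 to 34742973 in Sscrofa10.2) had 222, 212 and 205 CPM in Wei replicates 1 to 3, against 136, 139 and 138 CPM in Yorkshire replicates 1 to 3. The values within each breed lay close together and the breeds were far apart relative to that spread. Means were 213 ± 8.39 CPM in Wei and 138 ± 1.41 CPM in Yorkshire (SD, n = 3 each). The log2 fold change was 0.63 ± 0.11, with a 95% interval of 0.37 to 0.88 (edgeR adjusted p = 0.0249). It rested on 11187 counts in Wei and 9782 counts in Yorkshire libraries. Leaving out 1 library at a time gave log2 fold changes of 0.604 to 0.655 and adjusted p of 0.0504 to 0.102. The size of the difference therefore moved little, and the threshold was missed each time. With library size alone as the scaling, the adjusted p was 0.0657.

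USP7 was also the member with the largest difference among the 13 tested USP genes of the nucleus and chromatin. Of these 1 passed (7.69%, against 5.08% of all tested genes) and the other 12 did not. USP36, a nucleolar deubiquitinase, had 16.7, 17.2 and 15.5 CPM in Wei, against 14.5, 13.3 and 13.1 CPM in Yorkshire. These values did not overlap, and the log2 fold change was 0.27 ± 0.13 (edgeR adjusted p = 0.257). USP1, USP12 and USP46 work with the activating partner WDR48, and their log2 fold changes were -0.07 ± 0.12, -0.11 ± 0.16 and -0.14 ± 0.26. WDR48 itself had one of -0.13 ± 0.15. None of these passed. USP16, which removes ubiquitin from histone H2A, was almost level at 25.8 ± 1.03 CPM in Wei and 25.5 ± 1.89 CPM in Yorkshire (SD, n = 3 each).

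USP38 had the next smallest p among the USP genes. It stood at 32.1, 34.1 and 32.6 CPM in Wei replicates 1 to 3, against 24.5, 24.6 and 22.1 CPM in Yorkshire replicates 1 to 3, a clear gap between the breeds. Its log2 fold change was 0.47 ± 0.12 (edgeR adjusted p = 0.0595; DESeq2 adjusted p = 0.0292). It missed the threshold in every edgeR fit tried and in limma voom. DESeq2 called 3 members, USP7, USP38 and OTUD7B, while it called 9.77% of all tested genes.

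The USP genes of endosomes, endoplasmic reticulum and mitochondria had 0 of 6 passing in edgeR or in the other tools. In edgeR 5.08% of all tested genes passed. An unadjusted p under 0.05 was found for 1 (16.7%, against 23.3% of all tested genes). USP8, which frees endocytosed receptors from ubiquitin, had 17.0, 17.6 and 14.1 CPM in Wei, against 22.4, 20.7 and 21.9 CPM in Yorkshire. All Wei values were lower, with a log2 fold change of -0.42 ± 0.14 (edgeR adjusted p = 0.117). USP19, whose loss protects mice against muscle wasting, had 108, 90.5 and 90.4 CPM in Wei, against 87.1, 81.0 and 77.4 CPM in Yorkshire. All Wei values were higher, by a log2 fold change of 0.23 ± 0.13 (edgeR adjusted p = 0.303), which was 0.152 without Wei replicate 1. USP30, which opposes parkin on the mitochondrial outer membrane, overlapped between breeds at 21.4 ± 3.34 CPM in Wei and 21.0 ± 3.61 CPM in Yorkshire (SD, n = 3 each). Its locus overlaps ALKBH2, the symbol that the table of gene names gives to the same ID.

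**Figure D2:**
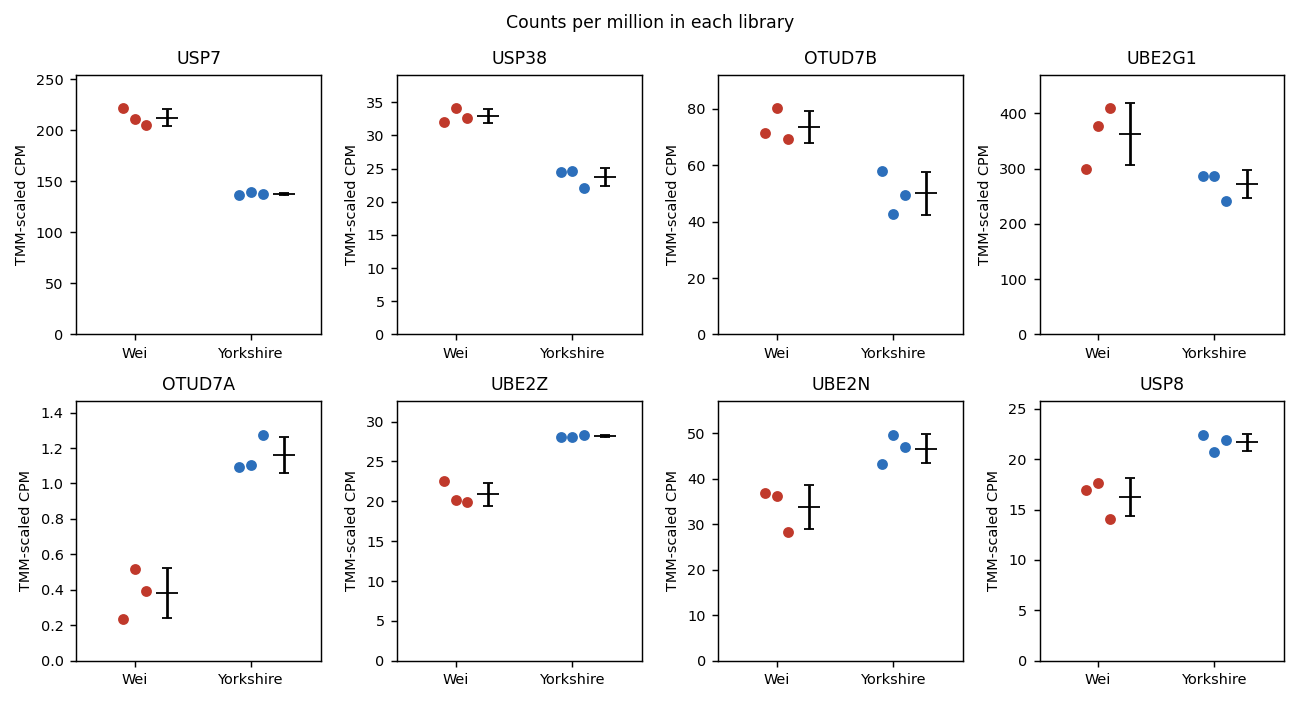
TMM-scaled CPM (y axis from 0) of 8 members in each library, Wei left and Yorkshire right, with the mean and SD of 3 libraries beside the points. All 8 are among the 18 tested members whose breeds do not overlap (29.5%, against 29.6% of all tested genes). USP7 and OTUD7A had edgeR adjusted p of 0.0249 and 0.0482, and the other 6 missed 0.05. OTUD7A reached the count filter through its Yorkshire libraries.

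OTUD genes had 1 of 4 passing, where 5.08% of all tested genes passed. OTUD7A (ENSSSCG00000004840, chromosome 1, 159292514 to 159363442 in Sscrofa10.2) had 4, 8 and 8 counts in Wei replicates 1 to 3, against 28, 20 and 35 counts in Yorkshire replicates 1 to 3. As CPM these were 0.237, 0.520 and 0.391 in Wei and 1.09, 1.11 and 1.28 in Yorkshire. Every Wei value was lower, with a log2 fold change of -1.59 ± 0.37 and a 95% interval of -2.47 to -0.75 (edgeR adjusted p = 0.0482). In Wei only 1 of 3 libraries reached the filter level of 0.494 CPM, while all 3 Yorkshire libraries did, so this gene entered the test through Yorkshire. UBE2T and USP31 did so as well, with 1 and 0 Wei libraries over that level.

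The OTUD7A call was lost without the count filter (adjusted p = 0.0607), in DESeq2 (0.0588), in limma voom (0.0544) and with library size alone (0.0551). Without single libraries the adjusted p ran from 0.0719 to 0.139. Its relative OTUD7B, which removes Lys11 chains and restrains NF-kappaB signalling, differed in the other direction. OTUD7B had 71.4, 80.1 and 69.1 CPM in Wei replicates 1 to 3, against 57.9, 42.8 and 49.4 CPM in Yorkshire replicates 1 to 3. The groups did not overlap, and the log2 fold change was 0.56 ± 0.14 (edgeR adjusted p = 0.0661; DESeq2 adjusted p = 0.0188). OTUD4 and OTUD6B overlapped between the breeds, with log2 fold changes of 0.08 ± 0.13 and 0.12 ± 0.16.

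**Figure D3:**
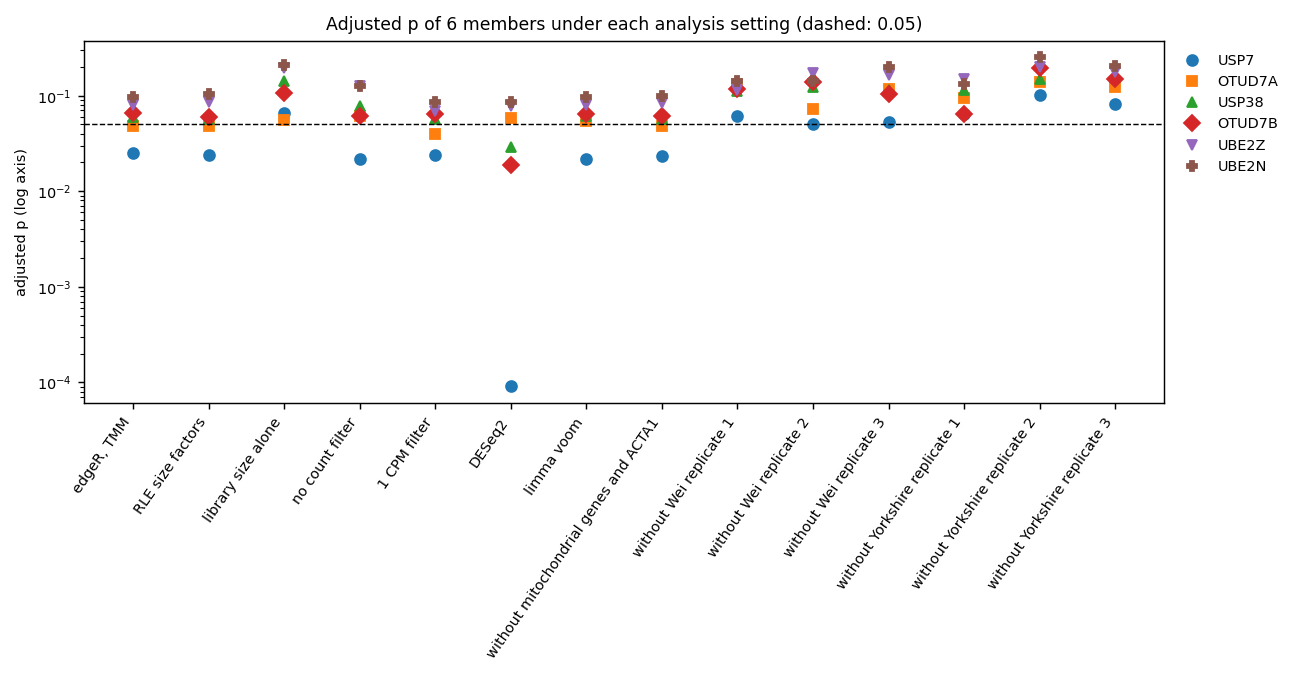
Adjusted p (log axis) of the 6 members with an edgeR adjusted p under 0.10, under edgeR with TMM scaling (far left) and under other settings; the dashed line is 0.05. USP7 lay under the line with all libraries except with library size alone, and all 6 lay above it whenever a library was left out.

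Compared per length, in the deposited FPKM values, the conjugating enzymes stood higher than the deubiquitinases. The median over rows of the mean FPKM was 16.5 for UBE2, 3.94 for USP and 6.20 for OTUD. Only 4 member rows averaged at least 100 FPKM. UBE2G1 led with 189.6 FPKM (156 to 223 over the 6 libraries), followed by UBE2D4 at 128 (120.0 to 141), the UBE2D2 row on chromosome 8 at 120.3 (98.3 to 141) and USP28 at 119.5 (86.3 to 157). The ranges of UBE2D4, this UBE2D2 row and USP28 overlapped, so their order is not firm, and the UBE2G1 range lay above those of UBE2D4 and this UBE2D2 row. UBE2L3, an E2 of HECT and RBR ligases such as parkin, and the UBE2B row came next among the UBE2 members at 66.0 and 59.7 FPKM. This ranking covers members alone. CDC34, a conjugating enzyme outside the UBE2 names, averaged 707 FPKM. A row without a symbol, which its ID gives to OTUD1, averaged 71.4 FPKM.

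USP28, a nuclear deubiquitinase and a close relative of USP25, averaged above every other USP or OTUD member in FPKM. It had 431, 545 and 321 CPM in Wei, against 399, 334 and 379.6 CPM in Yorkshire, which overlapped (log2 fold change 0.22 ± 0.20, and 0.029 without Wei replicate 2). USP25, which has a muscle-specific isoform in human, followed at 63.8 FPKM. Its CPM values were 284, 414 and 309 in Wei, against 269.8, 264 and 297 in Yorkshire, with an overlap at Wei replicate 1. The log2 fold change was 0.28 ± 0.16 with all libraries and 0.107 without Wei replicate 2. USP7 and USP24 came next at 41.6 and 40.6 FPKM, and USP24 had a log2 fold change of -0.06 ± 0.13. At the other end, 10 of the 66 rows averaged under 1 FPKM.

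**Figure D4:**
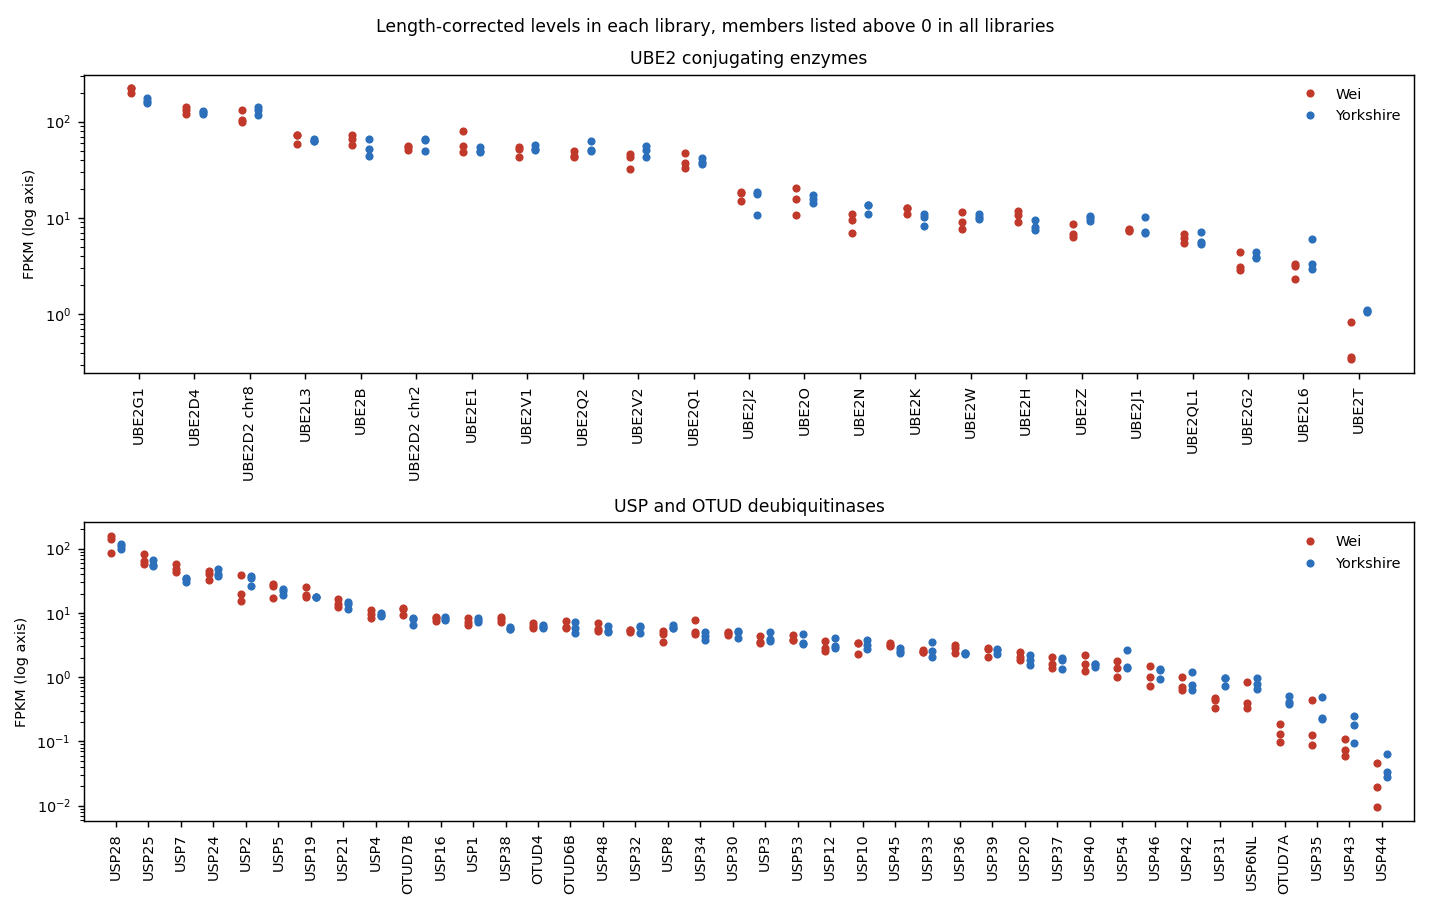
FPKM (log axis) of members listed above 0 in all libraries (1 UBE2 gene is not drawn), sorted by mean, with Wei points left and Yorkshire points right of each position; UBE2 genes above, USP and OTUD genes below. UBE2G1, UBE2D4, UBE2D2 on chromosome 8 and USP28 stand at or above 100 FPKM on average, and the breeds differ far less than the genes do.

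Libraries of 1 breed differed little in these genes. The median coefficient of variation over tested members was 11.5% in Wei and 9.57% in Yorkshire, against 17.2% and 14.9% over all tested genes, most of which have other count levels. USP2, an output of the circadian clock in mouse tissues, had the widest spread in Wei among tested members (52.4%). It stood at 69.8, 157 and 66.5 CPM in Wei replicates 1 to 3, against 146, 148 and 97.6 CPM in Yorkshire replicates 1 to 3. Wei replicate 2 was level with the upper Yorkshire libraries while Wei replicates 1 and 3 lay below all of them. The log2 fold change was -0.42 ± 0.33 (edgeR adjusted p = 0.478), and -0.932 without Wei replicate 2 (adjusted p = 0.0622). Wei replicate 2 is also the library with 6901 Y-chromosome counts, and the labels give no time of sampling; the part of either was not tested.

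Other tested members with a coefficient of variation above 30% were OTUD7A, UBE2T and USP6NL in Wei and UBE2L6, USP42 and USP54 in Yorkshire. USP54 had its highest value in Yorkshire replicate 3, at 12.3 CPM against 7.58 and 6.69 CPM in the other Yorkshire libraries. The 5 members under the count filter were UBE2U, with 0 counts in all libraries, and USP35, USP43, USP44 and USP50, with at most 70 counts each over all libraries. The locus of USP44 overlaps METAP2, and 8 members in all overlap another row of the table.

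Some genes are split over rows of the table. An unnamed row whose ID carries the same symbol was found for USP3, USP10, USP31, USP34 and USP39. USP31 shows the widest disagreement. The member row had 0.237, 0.390 and 0.391 CPM in Wei, against 0.625, 0.774 and 0.729 CPM in Yorkshire, and a log2 fold change of -1.04 ± 0.38 (edgeR adjusted p = 0.144). The unnamed row (chromosome 3, 23526114 to 23542872) had one of -0.11 ± 0.30. For USP34, an enzyme that acts on axin in Wnt signalling, the member row had a log2 fold change of 0.40 ± 0.21 (0.238 without Wei replicate 1) and the unnamed row 0.21 ± 0.15. The USP34 member row rested on 315 counts in Wei and 328 in Yorkshire, the unnamed row on 5530 and 6494, so most reads lay in the unnamed row. Differences between rows of a gene were not tested, and none of these rows passed.

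Other genes of the ubiquitin system were listed by role. Of deubiquitinases outside the USP and OTUD names, 3 of 24 (12.5%) passed in edgeR, all with higher values in Wei, where 5.08% of all tested genes passed and 2.73% were higher. These 24 genes had a median log2 fold change of 0.135. Limma voom called the same 3 genes, and DESeq2 called these and TNFAIP3, an editor of ubiquitin chains in NF-kappaB signalling (log2 fold change 0.93 ± 0.29, edgeR adjusted p = 0.102). UCHL1, a ubiquitin hydrolase abundant in neurons, had 10.6, 4.62 and 6.02 CPM in Wei, against 1.29, 1.94 and 1.06 CPM in Yorkshire. The groups were well apart, with a log2 fold change of 2.33 ± 0.37 (edgeR adjusted p = 0.0182). STAMBPL1, which cuts Lys63 chains, had 13.0, 6.96 and 8.42 CPM in Wei, against 3.75, 4.26 and 3.35 CPM in Yorkshire, and a log2 fold change of 1.32 ± 0.26 (edgeR adjusted p = 0.0324). CYLD, which removes Lys63 and linear chains from NF-kappaB regulators, had 24.1, 23.9 and 20.7 CPM in Wei, against 15.5, 13.6 and 12.8 CPM in Yorkshire, and a log2 fold change of 0.72 ± 0.14 (edgeR adjusted p = 0.0343). Of the 6 fits that left out 1 library, UCHL1 passed in 3, STAMBPL1 in 1 and CYLD in 0.

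Upstream of the E2s, 0 of 9 activating enzyme genes passed in edgeR or limma voom, against 5.08% and 4.88% of all tested genes. Their median log2 fold change was -0.304. An unadjusted p under 0.05 was found for 2 of these 9 (22.2%, against 23.3% of all tested genes). UBA3, a subunit of the NEDD8 activating enzyme, had 42.2 CPM on average in Wei and 58.3 CPM in Yorkshire (log2 fold change -0.47 ± 0.12, edgeR adjusted p = 0.0566). UBA6, the enzyme that charges UBE2Z, had 3.85, 4.81 and 5.58 CPM in Wei, against 8.75, 7.47 and 7.61 CPM in Yorkshire. Its log2 fold change was -0.74 ± 0.19 (edgeR adjusted p = 0.0664), and DESeq2 called both UBA3 and UBA6.

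Ubiquitin and ubiquitin-like genes had 0 of 12 passing in edgeR or limma voom, and DESeq2 called 1. At an unadjusted p under 0.05 there were 4 (33.3%). Of all tested genes 5.08% passed in edgeR and 23.3% had an unadjusted p under 0.05. These shares apply to each list in this paragraph. RPS27A, a fusion of ubiquitin with a ribosomal protein, had 213.9, 216.1 and 252.3 CPM in Wei, against 264.8, 367.1 and 341.6 CPM in Yorkshire. All Wei values were lower, with a log2 fold change of -0.51 ± 0.16 (edgeR adjusted p = 0.0981). The ubiquitin coding stretch is near-identical between genes, so its reads are uncertain. Conjugating enzymes under other names had 0 of 6 passing, 1 at an unadjusted p under 0.05, and the smallest p belonged to UEVLD, with a log2 fold change of -0.53 ± 0.17, and to CDC34, the E2 of cullin ligases, with -0.20 ± 0.13. SUMO and NEDD8 proteases had 0 of 9, and 0 at an unadjusted p under 0.05, with SENP5 at -0.22 ± 0.14 and SENP2 at -0.22 ± 0.17. Partners of members had 0 of 16, and 1 at an unadjusted p under 0.05, with the ligases UBE3C at 0.40 ± 0.11 and UBR2, a partner of UBE2B, at 0.39 ± 0.18. In these last 3 lists DESeq2 and limma voom called 0 genes as well. The median log2 fold change was -0.227 for ubiquitin genes, -0.182 for the other conjugating enzymes, -0.102 for the proteases and -0.014 for the partners.

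**Figure D5:**
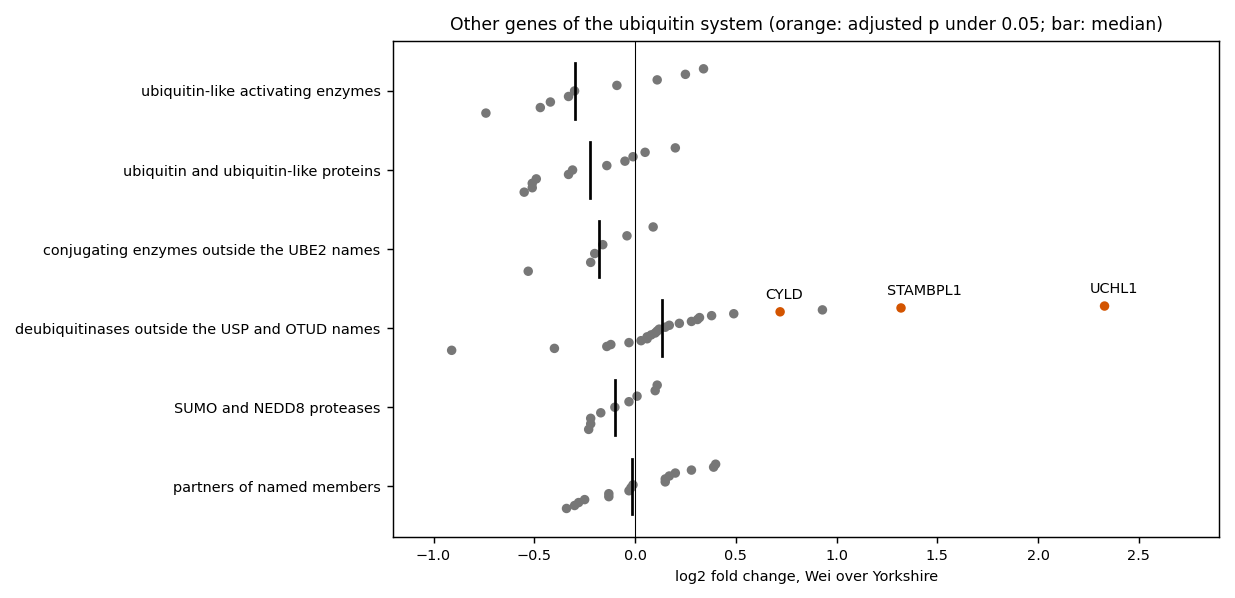
Log2 fold change (x axis, Wei over Yorkshire) of tested genes in 6 lists of other ubiquitin system genes, with the median of the whole list as a black bar; 1 gene of the ubiquitin list is not drawn. UCHL1, STAMBPL1 and CYLD, all deubiquitinases and all to the right of 0, are the 3 orange points with an adjusted p under 0.05.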

How the data were processed

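Per the file headers, the authors' table lists pig genes by Ensembl ID, with raw counts and FPKM values for every library. CASAVA 1.7, TopHat2 2.0.9, edgeR and the build Sscrofa10.2 appear in the submitters' processing notes without their roles. How reads were counted, from which annotation, and whether by strand, is not given in the sources used here. Tests used the deposited counts. The authors' FPKM values served only to compare levels between genes.

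Breed labels set the groups, and all pairs of libraries differed by more than sampling noise (chi-square over degrees of freedom, lowest 26.3). In R 4.3.3 with edgeR 4.0.16, low genes were removed (filterByExpr, count of 10), counts were scaled by TMM, and Wei was set over Yorkshire with glmQLFit and glmQLFTest. P-values were adjusted by Benjamini-Hochberg over 13209 genes, with a threshold of 0.05. SEs were computed from the fold change and its F statistic. CPM is TMM-scaled. The procedure was tested on simulated data. Alternatives included DESeq2 1.42.0, limma 3.58.1 (voom), other scalings and filters, and each library left out.

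The text names every called member, the 6 smallest p, 3 largest changes and 5 highest FPKM means of each family, and a set with known roles; other members were named after their values were seen. Results of 2 genes, 1 of them a member, are not reported here, although counts, sums and medians include them. Members, lists and roles were chosen with earlier results of these data known. Figures used matplotlib 3.10.9.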

Additional observations from a re-analysis of the deposited data

How the results depend on the processing

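The 8 alternatives that kept all libraries turned no direction among the 31 members named by the fixed rule; directions of the other members were not followed. All alternatives were planned. Calls over all genes numbered 671, and 1291 with DESeq2; the cause was not tested. Leaving out 1 library left 60 to 394 genes and 0 members, with fewer samples in each fit. Member calls numbered 2, but 0 with library size alone, and 1 (USP7) with no count filter, limma voom or the replicate block. A threshold of 0.01 gave 0 and one of 0.1 gave 6, by construction. By family, USP calls numbered 1, but 2 with DESeq2 and 0 with library size alone, and OTUD calls 1, but 0 with library size alone, no count filter, limma voom or the replicate block; without single libraries both ranged from 0 to 0. The USP median log2 fold change of 0.031 was 0.008 with library size alone and ran from 0.018 to 0.066 without single libraries. Leaving out single libraries turned the sign of 3 of these 31, all near 0. UBE2J1 ran from -0.164 to 0.079 (positive without Wei replicate 1 or Yorkshire replicate 3), USP24 from -0.085 to 0.009 and USP30 from -0.096 to 0.152 (both turned without Wei replicate 3 or Yorkshire replicate 3). Libraries with the same number had deviations from their breed mean that correlated at 0.137, -0.00664 and 0.0222. With 3 libraries per breed, such correlations cannot tell whether a batch or pairing was shared. The replicate block gave 477 genes and an OTUD7A edgeR adjusted p of 0.0824. Scalings put the median log2 fold change of all genes between -0.042 and -0.012. Depth limits OTUD7A, UBE2T and USP31, which rest on 20, 29 and 18 counts in Wei.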

Other observations

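A further 11 rows have no symbol in the deposited table but carry a USP or OTUD symbol by ID, and so lie outside the members. USP47, which acts in base excision repair, had 388, 435 and 409 CPM in Wei, against 335, 315 and 315 CPM in Yorkshire. The groups did not overlap, and the log2 fold change was 0.35 ± 0.12 (edgeR adjusted p = 0.123). USP13, a relative of USP5, had 469.6, 370.1 and 353 CPM in Wei, against 320.5, 358 and 208 CPM in Yorkshire, with a log2 fold change of 0.43 ± 0.22 (edgeR adjusted p = 0.273). USP14, the deubiquitinase bound to the proteasome, overlapped, with a log2 fold change of -0.05 ± 0.13, and USP15 did too, with 0.02 ± 0.15. OTUD1 varied widely within each breed, at 112, 143 and 18.0 CPM in Wei, against 97.5, 19.4 and 27.1 CPM in Yorkshire. Its log2 fold change was 0.92 ± 0.76 (edgeR adjusted p = 0.501), and 1 library of 3 in Wei and 2 of 3 in Yorkshire were low.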
